A study of Mus musculus with 12 samples.

Results

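The cytosolic ribosomal protein genes were taken as the protein-coding genes whose symbols follow the Rpl and Rps numbering, with Rplp0, Rplp1, Rplp2 and Rpsa, leaving out the Rps6k kinases and symbols marked -ps. This gave 83 genes of the 39179 identifiers in the count tables, of which 32 encode proteins of the small subunit, 48 encode proteins of the large subunit and 3 encode the stalk of the large subunit. Transcripts were counted by RNA sequencing of calvariae (the bones that roof the skull) from C57BL/6 mouse embryos at embryonic day 17.5. There were 4 groups of 3 libraries: Runx2+/- embryos of dams given MS-275, WT embryos of dams given MS-275, Runx2+/- embryos with the treatment label vehicle, and WT embryos with that label. MS-275 (entinostat) inhibits class I histone deacetylases, and Runx2 encodes the transcription factor that osteoblasts need to form. WT and Runx2+/- parents were 8 weeks old at mating. Dams had intraperitoneal injections of 10 mg MS-275 per kg on days 14.5 and 16.5 post coitum. Embryos were therefore exposed through the dam. The labels do not say which part of Runx2 is deleted, nor whether the libraries of a group came from separate embryos or litters, so p-values measure the spread among these libraries.

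Each ribosome joins a small subunit, which reads the mRNA, to a large subunit, which forms the peptide bond, and nearly every ribosomal protein is present once per particle. The stalk, built on Rplp0 and ending in the acidic proteins Rplp1 and Rplp2, contacts the translation factors that drive elongation. In mammals the mRNAs of these proteins usually begin with a C followed by pyrimidines, the terminal oligopyrimidine or TOP tract, through which mTOR signalling controls their translation, and osteoblasts that secrete bone matrix make large amounts of protein.

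RefSeq promoter sequences (GRCm38.p6) matched 63 of the 83 genes. The windows below run from 60 bases before the RefSeq start to 20 bases after it, and capitals mark the TOP tract, where a C followed by at least 4 pyrimidines lies within the first 10 transcribed bases. They are shown for 2 genes with large MS-275 differences in WT (Rpl38 at chr11:114668520-114668599, plus strand, and Rps4x at chrX:102189372-102189451, minus strand), for 2 genes with small ones (Rplp2 at chr7:141447591-141447670 and Rps9 at chr7:3703981-3704060, both plus strand), and for a paralog pair (Rps27 at chr3:90213629-90213708, minus strand, and Rps27l at chr9:66946026-66946105, plus strand).
Rpl38: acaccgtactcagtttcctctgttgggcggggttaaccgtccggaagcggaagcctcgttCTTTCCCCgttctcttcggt
Rps4x: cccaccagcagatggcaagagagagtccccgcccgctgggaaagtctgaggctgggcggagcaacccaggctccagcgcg
Rplp2: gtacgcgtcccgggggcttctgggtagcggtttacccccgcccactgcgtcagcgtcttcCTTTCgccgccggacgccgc
Rps9: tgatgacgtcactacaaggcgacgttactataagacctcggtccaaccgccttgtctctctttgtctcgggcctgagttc
Rps27: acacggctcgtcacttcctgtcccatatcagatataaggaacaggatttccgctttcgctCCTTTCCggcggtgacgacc
Rps27l: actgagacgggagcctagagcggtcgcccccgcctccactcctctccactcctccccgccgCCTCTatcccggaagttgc

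Libraries held 13307456 to 19399760 counts in genes. Not all libraries followed their group, and groups here are named as the labels give them. Markers of osteoblasts, the tissue's defining cells, were detected in every library, and their sum (7 of 7 genes detected) ranged over 1702 to 50742 CPM for Runx2+/- MS-275, 44104 to 49900 CPM for WT MS-275, 4215 to 12056 CPM for Runx2+/- vehicle and 5693 to 8297 CPM for WT vehicle. CPM is the count on a per-megaread scale, with library sizes scaled by the TMM method of edgeR. The lowest of these sums belonged to the library labelled Runx2+/- MS-275 replicate 3. On the first principal component of log2 CPM over all genes tested, this library, at -106, lay beside replicates 1 and 2 of the vehicle groups (-122 to -92.7), while the other 5 MS-275 libraries lay at 83.9 to 140.0 and replicate 3 of Runx2+/- vehicle and of WT vehicle at -14.5 and 5.51. On this component and in its osteoblast sum the library thus went against its label. Its share of mitochondrially encoded counts, 9.48%, lay above those of the vehicle libraries. Whether the label or the tissue taken differed was not tested. Summed epidermis markers (7 genes, all detected in vehicle libraries) came to 7.52 and 16.0 CPM in Runx2+/- MS-275 replicates 1 and 2 but 1642 CPM in replicate 3, to 11.4 to 13.8 CPM in WT MS-275, to 1122 to 2632 CPM in Runx2+/- vehicle and to 1255 to 3945 CPM in WT vehicle. Ivl was at 0 in Runx2+/- MS-275 replicate 2 and WT MS-275 replicate 2. Lens markers (5 genes) summed to 65.2 CPM in Runx2+/- vehicle replicate 3 and 81.9 CPM in WT vehicle replicate 3, against 774 to 1051 CPM in the other 4 vehicle libraries. Neuron markers (6 genes) in the same 2 libraries came to 315 and 149 CPM, against 922 to 2012 CPM in the other 4. Mitochondrially encoded genes took 9.48% to 24.2% of counts in MS-275 libraries and 4.32% to 5.52% in vehicle libraries. Runx2 itself had 905, 1172 and 783 counts in Runx2+/- MS-275, 1699, 1602 and 1022 in WT MS-275, 1412, 761 and 1140 in Runx2+/- vehicle, and 1140, 736 and 933 in WT vehicle, so the genotypes overlapped in both treatments. Whether these counts cover the deleted part is not stated. Erythroid markers (5 genes) summed to 17145, 9487 and 1743 CPM in Runx2+/- MS-275, and to 3839, 8897 and 20793 CPM in WT MS-275. With vehicle they summed to 2752, 3275 and 6305 CPM in Runx2+/- and to 2503, 1902 and 4441 CPM in WT. Macrophage and osteoclast markers (4 genes) came to 1625 to 2000.03 CPM in WT MS-275, against 191 to 435 CPM in WT vehicle, and to 1015, 582 and 98.0 CPM in Runx2+/- MS-275, against 105 to 404 CPM in Runx2+/- vehicle. Endothelial markers (3 genes) came to 419 to 529 CPM in WT MS-275, against 143 to 221 CPM in WT vehicle, and to 610.4, 474 and 114 CPM in Runx2+/- MS-275, against 128 to 192 CPM in Runx2+/- vehicle. Skeletal muscle markers (6 genes) went the other way in WT, at 212 to 1655 CPM with MS-275 and 2369 to 5377 CPM with vehicle, and in Runx2+/- overlapped, at 2570 to 3352 CPM with MS-275 and 1153 to 4964 CPM with vehicle. Adipocyte (5 genes) and chondrocyte (3 genes) sums overlapped between treatments in WT, at 105 to 189 and 187 to 721 CPM with MS-275 and 19.7 to 227 and 202 to 553 CPM with vehicle. Most of the adipocyte sum was Fabp4, at 99.5 to 182 CPM in WT MS-275 and 16.6 to 171 CPM in WT vehicle. Adipoq had 0, 0 and 0.173 CPM in WT MS-275, against 0.0798, 20.5 and 16.9 CPM in WT vehicle. Plin1 had 0 CPM throughout WT MS-275, against 0.0399, 14.4 and 4.20 CPM in WT vehicle. The part of these tissue differences in the results on ribosomal proteins was not tested. In bulk tissue, fewer cells of a type and less RNA per cell cannot be told apart.

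Together the ribosomal protein transcripts made up 3.28% to 12.2% of all counts in a library. Their share was 10.1%, 8.87% and 4.39% in Runx2+/- MS-275 replicates 1, 2 and 3. It was 8.76%, 10.4% and 12.2% in WT MS-275. In Runx2+/- vehicle it was 4.07%, 3.32% and 8.06%, and in WT vehicle it was 4.01%, 3.28% and 8.77%. All but 1 of the MS-275 libraries therefore held at least 8.76%, and the exception was Runx2+/- MS-275 replicate 3, the library with epidermis, neuron and lens markers at vehicle levels. Among the vehicle libraries only the replicate 3 library of each genotype came near the MS-275 libraries. Wilson 95% intervals for these shares extended at most 0.0146 percentage points to either side and cover counting error only, so the spread between libraries far exceeded it.

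**Figure D1:**
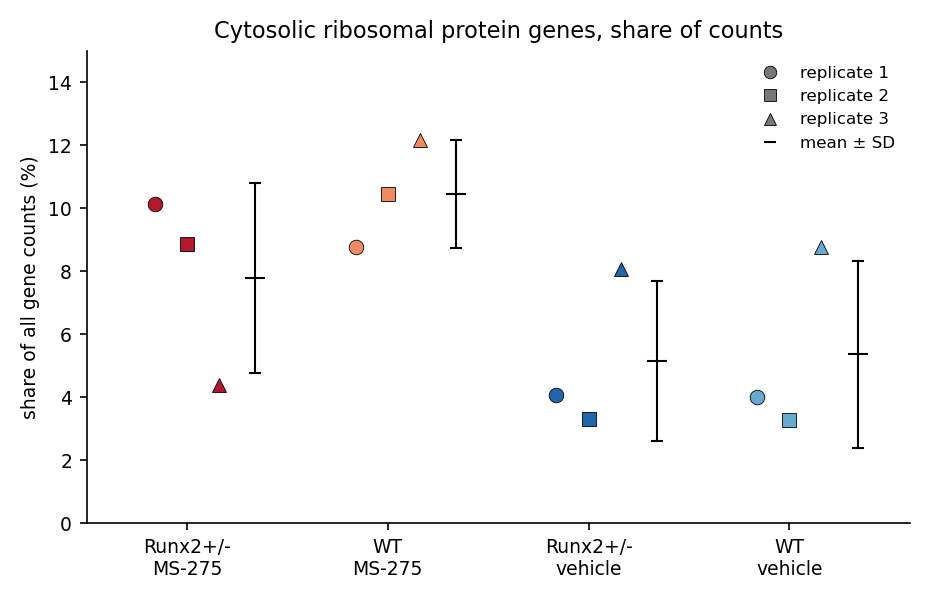
Share of all gene counts taken by the 83 cytosolic ribosomal protein genes (y axis, percent) in each of 12 libraries by group, with the mean ± SD of 3 libraries beside the points. Runx2+/- MS-275 replicate 3 lies at 4.39%, below both other libraries of its group, while replicate 3 of each vehicle group lies at 8.06% and 8.77%, above the others of its group.

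The mean share was 10.5% ± 1.71 in WT MS-275 and 5.36% ± 2.98 in WT vehicle (SD, n = 3 each), a difference of 5.11 percentage points (two-sided exact permutation test, p = 0.2). In Runx2+/- embryos it was 7.80% ± 3.02 with MS-275 and 5.15% ± 2.55 with vehicle, a difference of 2.65 points (exact permutation p = 0.2). With 3 libraries against 3, this test cannot give a p below 0.1. Without the third libraries of all groups, a choice made after seeing that replicate 3 of Runx2+/- MS-275, Runx2+/- vehicle and WT vehicle stood apart, and which also drops WT MS-275 replicate 3, which did not, the mean shares were 9.60% in WT MS-275 against 3.65% in WT vehicle, and 9.50% in Runx2+/- MS-275 against 3.69% in Runx2+/- vehicle. Counts of large-subunit genes, stalk included, were 1.26 to 1.41 times those of small-subunit genes in all 12 libraries. The lowest ratios were in replicate 3 of WT vehicle (1.26) and of Runx2+/- vehicle (1.29), the vehicle libraries with the highest shares. In the other vehicle libraries the ratio was 1.38 to 1.41, and in MS-275 libraries 1.34 to 1.39. Exact permutation p-values over the 5 pairs of groups ranged from 0.4 to 1. They compare group means and do not test whether the ratio goes with the share.

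Levels of single genes spanned a wide range. Per kilobase of coding sequence, averaged over the 12 libraries, the highest were Rpl41 (18216 CPM per kb), Rpl39 (8211), Rpl23 (4835) and Rps24 (4045). Rpl41 had 1694, 2128 and 3052 CPM in WT MS-275, against 504, 399.7 and 1703 CPM in WT vehicle, the replicate 3 value reaching into the MS-275 range. Rpl39 had 1541, 2625 and 3435 CPM in WT MS-275, against 307, 213 and 876 CPM in WT vehicle. Rpl41 and Rpl39, which lines the exit tunnel, have coding sequences of only 75 and 153 bases, and dividing by so short a length raises their value. The lowest were Rpl10l, with 0 counts in all 12 libraries, and Rpl3l, Rpl24 and Rpl39l (0.416, 9.07 and 94.1 CPM per kb). Rpl10l, a testis retrogene, could have had up to 3 counts in a library, 0.155 to 0.225 CPM by library size alone. Rpl3l, the paralog of heart and skeletal muscle, had at most 0.456 CPM in WT MS-275 and at most 1.50 CPM in WT vehicle, while its parent Rpl3 had 1861, 2439 and 3097 CPM in WT MS-275, against 677, 567 and 1346 CPM in WT vehicle. Rpl24 encodes an ordinary subunit protein, yet it had 1.75 to 8.92 CPM. Many ribosomal protein genes have processed pseudogene copies, 14.0% to 20.1% of reads aligned to more than 1 place, and 239 annotated pseudogenes of these genes are in the tables. Levels of members with near-identical copies are for that reason uncertain, and the part of this in the value of Rpl24 was not tested.

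In WT calvariae, ribosomal protein transcripts were higher with MS-275 than with vehicle. Of 82 genes tested, 17 passed as higher and 0 as lower (quasi-likelihood F test of edgeR, Benjamini-Hochberg adjusted over 17967 genes, threshold 0.05), against 9.67% of all genes higher and 9.33% lower. The median log2 fold change was 1.79 over the 82 genes and -0.13 over all genes tested, and it was above 0 for 81 of the 82. CPM did not overlap between the 3 MS-275 and the 3 vehicle libraries for 73 of the 82, all higher, against 27.3% of all genes higher and 27.5% lower. The calls sat just inside the threshold, with adjusted p from 0.0434 to 0.0493, and 0.0434 was also the smallest of any gene in the comparison.

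Of the 17 genes, 12 belong to the large subunit. Rpl38, whose loss in mice alters the pattern of the axial skeleton, had 782, 1097 and 1759.8 CPM in WT MS-275, against 171, 136 and 350.2 CPM in WT vehicle. All its MS-275 values lay above the highest vehicle value, which was that of replicate 3, and the log2 fold change was 2.47 (SE 0.69, adjusted p = 0.0437). Rpl23, a protein of the interface between the subunits, had 2523, 3745 and 5815 CPM in WT MS-275, against 586, 479 and 1105 CPM in WT vehicle (log2 fold change 2.48, SE 0.69, adjusted p = 0.0439). Rpl23a, which lies at the exit of the peptide tunnel, had 328, 461 and 657 CPM in WT MS-275, against 84.5, 65.8 and 172 CPM in WT vehicle (log2 fold change 2.17, adjusted p = 0.0451). In both, WT vehicle replicate 3 was the highest vehicle library. Rpl29 had 719, 881 and 1358 CPM in WT MS-275, against 208, 170.4 and 401 CPM in WT vehicle. Rpl10, which joins the subunit late in its assembly, had 2306, 2947 and 4549 CPM in WT MS-275, against 544, 439.9 and 1126 CPM in WT vehicle. Neither gene's groups overlapped. Other large-subunit genes that passed included Rpl5, Rpl7, Rpl21, Rpl30, Rpl37 and Rpl37a, and with Rpl10 and Rpl29 their log2 fold changes ran from 1.92 (Rpl29) to 2.30 (Rpl37a).

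The small subunit gave 5 of the 17. Rps4x, the X-linked form of its gene, was among the most abundant transcripts of the family, with 3791, 5297 and 8336 CPM in WT MS-275, against 874, 709 and 1787 CPM in WT vehicle (log2 fold change 2.37, SE 0.71, adjusted p = 0.0466). Rps26, at the mRNA exit channel, had 1149.8, 1515 and 2354 CPM in WT MS-275, against 270.2, 205 and 586 CPM in WT vehicle (log2 fold change 2.24, adjusted p = 0.0471). Rps28 had 757, 909 and 1609.5 CPM in WT MS-275, against 164, 133 and 343 CPM in WT vehicle (log2 fold change 2.35, adjusted p = 0.0473). The groups did not overlap for any of these, and the vehicle replicate 3 library was again nearest to the MS-275 libraries. Rps29, a zinc-binding protein of the subunit's head, had 794, 1065 and 1637 CPM in WT MS-275, against 204, 166 and 401 CPM in WT vehicle (log2 fold change 2.18, adjusted p = 0.0471).

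**Figure D2:**
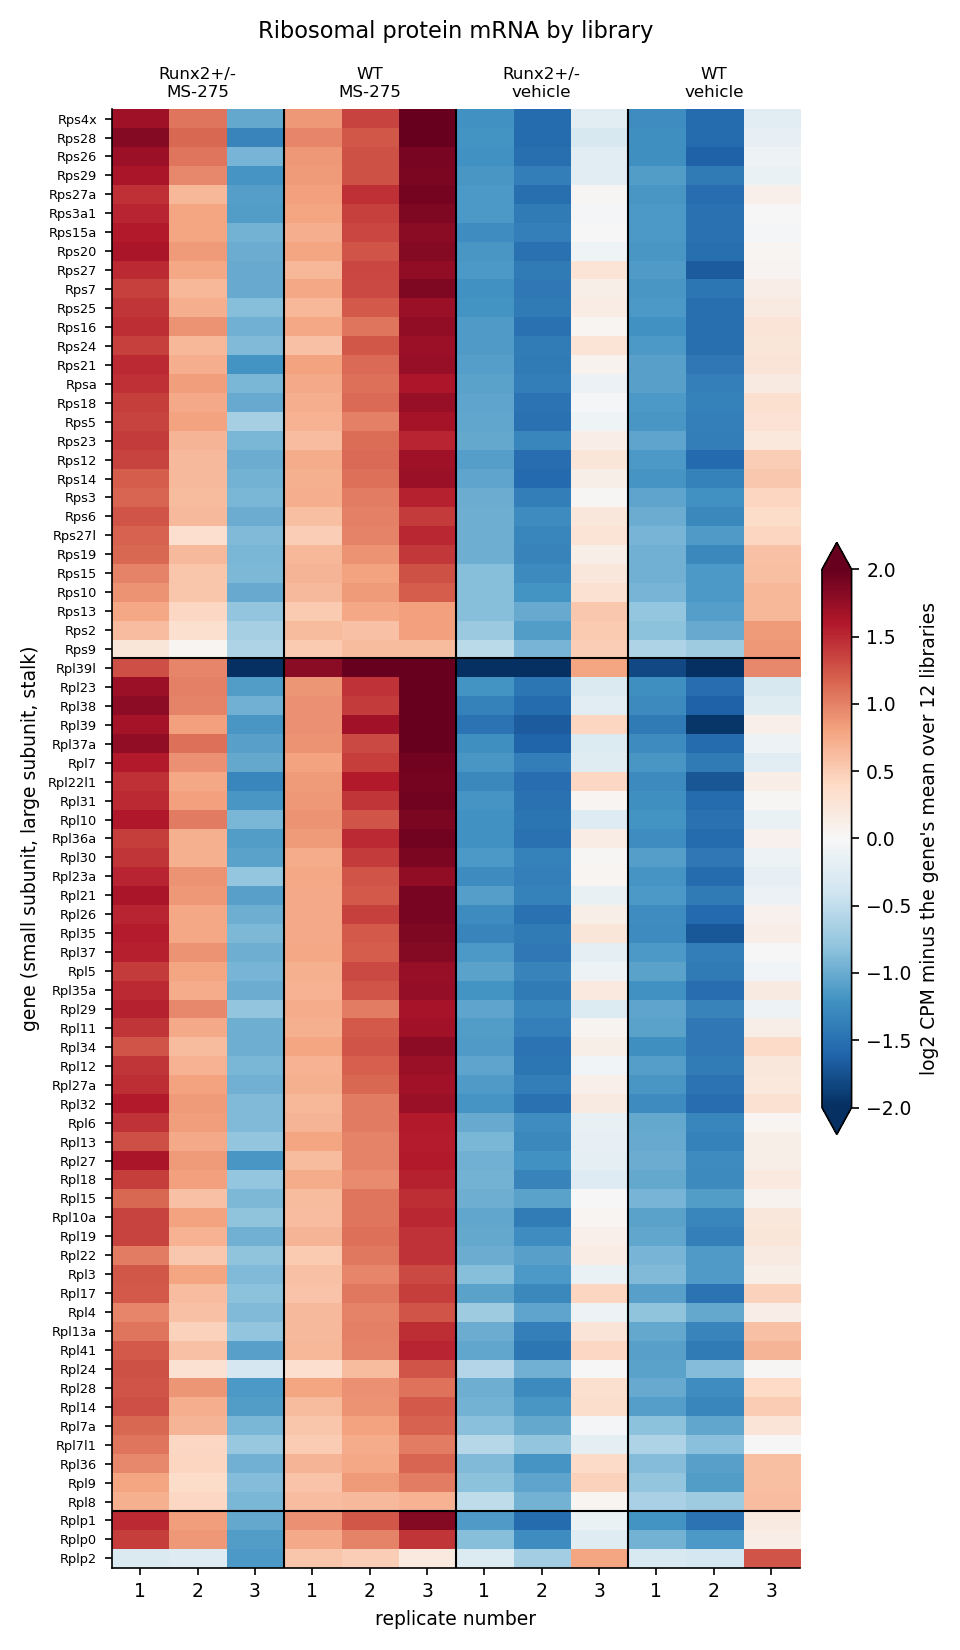
Each gene's log2 CPM minus its own mean over the 12 libraries (colour, limited at 2 either way), with small-subunit, large-subunit and stalk genes in blocks from top to bottom, ordered within a block by their MS-275 difference in WT. Rpl3l and Rpl10l, near or at 0, and a few other genes are not drawn. Columns move nearly as a unit: Runx2+/- MS-275 replicate 3 is low and replicate 3 of both vehicle groups is close to or above the mean of most genes, and the 3 WT MS-275 libraries are high.

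The stalk was uneven. Rplp0, its base, had 3111, 3664 and 4952 CPM in WT MS-275, against 948, 825 and 2006 CPM in WT vehicle, and Rplp1 had 1714, 2156 and 3249 CPM in WT MS-275, against 398, 328 and 1038 CPM in WT vehicle. Neither gene passed, at log2 fold changes of 1.63 and 2.01 (adjusted p = 0.0691 and 0.0567). Rplp2, the partner of Rplp1 in the stalk's acidic dimers, had 336, 321 and 262 CPM in WT MS-275, against 184, 180.1 and 549 CPM in WT vehicle. Its vehicle replicate 3 value exceeded all 3 MS-275 values, so the groups overlapped, and the log2 fold change was 0.01 (SE 0.50, adjusted p = 0.989). Leaving out the third libraries of all groups, the log2 fold change of Rplp2 in WT was 0.88 (adjusted p = 0.00438), against 2.64 for Rpl38.

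Rps9 and Rps2, which lie where mRNA enters the small subunit, had the largest p-values of that subunit. Rps9 had 1059, 1147 and 1144 CPM in WT MS-275, against 477, 449 and 1345 CPM in WT vehicle (log2 fold change 0.56, SE 0.50, adjusted p = 0.372), and Rps2 had a log2 fold change of 0.74 (SE 0.58, adjusted p = 0.315). In both, WT vehicle replicate 3 lay above every WT MS-275 library. Rpl8, a protein near the peptidyl transferase centre, had 1076, 1095 and 1133 CPM in WT MS-275, against 446, 428 and 1067 CPM in WT vehicle. Its groups only just failed to overlap, with WT vehicle replicate 3 close below the MS-275 libraries, and the log2 fold change was 0.77 (adjusted p = 0.219).

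These counts depended on single libraries and on the tool. Without WT vehicle replicate 3, 74 of the 82 genes passed as higher in WT (13.9% of all genes), and without Runx2+/- MS-275 replicate 3, 62 did (22.2%). Without Runx2+/- MS-275 replicate 1, 41 did (15.4%), and without Runx2+/- vehicle replicate 3, 4 did (5.2%, near the members' own share). Without any 1 of the other 8 libraries, 0 members passed, and 0 of all genes passed in either direction. Without the third libraries of all groups, 81 of 82 passed in WT, all but Rpl3l, with a median log2 fold change of 2.23. Of all genes 27.9% were then higher and 29.8% lower. DESeq2 passed 64 (18.5% of all genes higher, 21.7% lower). With limma-voom 0 members passed, and of all genes 0 were higher and 1 lower. Scaling by library size alone passed 16 members as higher, against 2.93% of all genes higher and 39.0% lower. It gave a median of 0.95 for the members and -0.95 for all genes. A change of scaling shifts all genes of a library alike, so the members' distance from the median gene cannot test the scaling.

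In Runx2+/- calvariae the same comparison passed 0 of the 82 genes, as it passed 0 of the 17967 (0% of all genes higher and 0% lower). At an unadjusted p under 0.05 there were 28 members and 3782 genes, and the smallest adjusted p of a member was 0.181. DESeq2 passed 10 members (4.77% of all genes higher), and limma-voom passed 0 members and 0 of all genes. The median log2 fold change was 1.36 over the members and -0.04 over all genes, and it was above 0 for 80 of the 82. No member's CPM separated the MS-275 from the vehicle libraries, against 6.33% of all genes higher and 8.56% lower.

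Rpl38 shows the pattern: it had 1424, 825 and 213 CPM in Runx2+/- MS-275, against 162, 143 and 355 CPM in Runx2+/- vehicle. Replicates 1 and 2 with MS-275 were the highest of the 6 libraries, and replicate 3 with MS-275 fell among the vehicle libraries (log2 fold change 1.90, SE 0.67, adjusted p = 0.186). Rps4x had 6719, 4328 and 1014 CPM in Runx2+/- MS-275, against 899, 714 and 1768 CPM in Runx2+/- vehicle, with the same overlap (log2 fold change 1.84, adjusted p = 0.193). Rplp2 had 188, 192 and 103 CPM in Runx2+/- MS-275, against 189, 142 and 397 CPM in Runx2+/- vehicle. Its MS-275 values lay within or below the vehicle range, at a log2 fold change of -0.59 (SE 0.50, adjusted p = 0.519).

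Without Runx2+/- MS-275 replicate 3, the library that carried epidermis, neuron and lens markers, 47 members passed as higher in Runx2+/- (18.5% of all genes did), with a median log2 fold change of 1.77. Without the third libraries of all groups 80 of 82 passed, against 25.0% of all genes higher and 30.6% lower, and the median was 2.28; Rpl3l and Rplp2 were the exceptions, Rplp2 with a log2 fold change of 0.14 (adjusted p = 0.524). The 2 genotypes' fold changes shared no library. The test of the difference between them (the MS-275 difference in Runx2+/- minus that in WT) passed 0 members and 0 of all genes in either direction (0%), with a median of -0.44 over the members and 0.06 over all genes. Across members the smallest unadjusted p for this difference was 0.262 (Rpl3l), while 953 genes had one under 0.05. DESeq2 passed 0 members and 0.211% of all genes as higher. The members' median was 0.03 with the third libraries left out and 0.07 without Runx2+/- vehicle replicate 3 alone, and -0.02 without Runx2+/- MS-275 replicate 3, so its sign rests on single libraries.

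**Figure D3:**
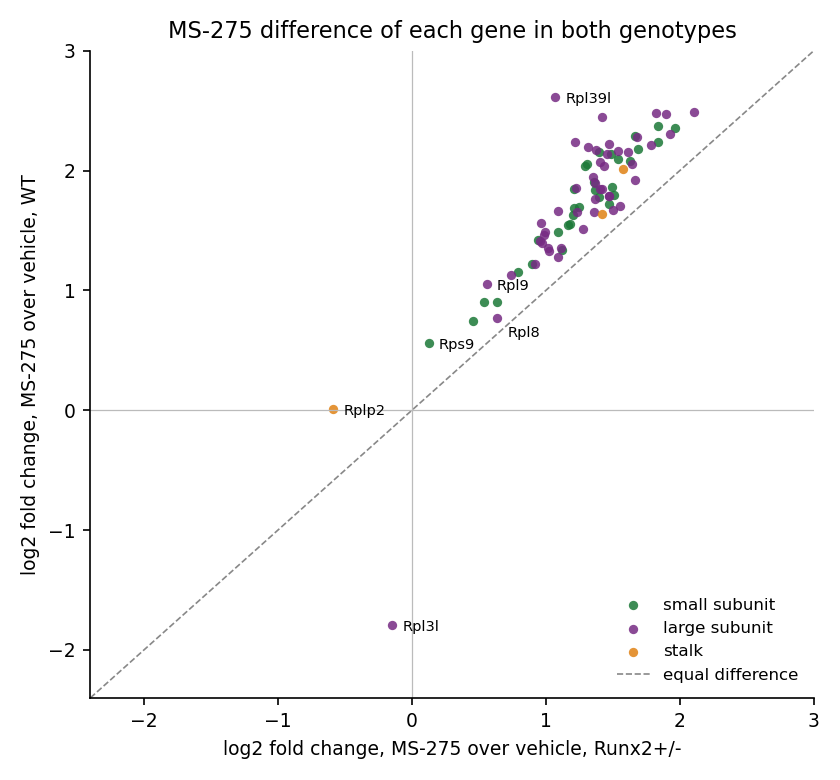
Log2 fold change of MS-275 over vehicle for the 82 tested genes in Runx2+/- (x axis) and in WT (y axis), coloured by subunit, with the dashed line where both are equal. All genes but Rpl3l lie above the line, Rplp2 stands at 0.01 on the WT axis, and Rpl3l, at no more than 1.50 CPM in any library, stands at -1.79.

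No difference between genotypes was detected under vehicle. In Runx2+/- vehicle against WT vehicle, 0 of 82 members passed and 0 of all genes did (0%), 0 members and 55 genes had an unadjusted p under 0.05, DESeq2 passed 0, and the median log2 fold change was -0.07. Its sign rested on single libraries: leaving out Runx2+/- vehicle replicate 3 gave -0.63, and leaving out WT vehicle replicate 3 gave 0.56. No member's CPM separated the genotypes, against 2.69% of all genes higher and 2.09% lower. Replicate numbers deviated together in these 2 groups, and a fit of the vehicle libraries with the replicate number as a block also passed 0 members, at a median of -0.04. Rpl38, for example, had 162, 143 and 355 CPM in Runx2+/- vehicle, against 171, 136 and 350.2 CPM in WT vehicle, each library close to its namesake (log2 fold change 0.01, SE 0.65, adjusted p = 1).

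With MS-275, the members were lower in Runx2+/- than in WT by a median log2 fold change of -0.54, and 0 of 82 passed, as 0 of all genes did (0%). No member had an unadjusted p under 0.05, while 2832 genes did. DESeq2 passed 0 members, with 3.14% of all genes higher and 0.768% lower. CPM did not overlap for 3 members, all lower in Runx2+/- (Rplp2, Rps9 and Rpl39l), against 9.13% of all genes higher and 7.52% lower. Rplp2 had 188, 192 and 103 CPM in Runx2+/- MS-275 and 336, 321 and 262 CPM in WT MS-275 (log2 fold change -0.93, SE 0.50, adjusted p = 0.379). The median over members was 0.06 once the third libraries were left out, and -0.12 without Runx2+/- MS-275 replicate 3 alone.

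Runx2+/- MS-275 was also set against WT vehicle. Here 0 of 82 members passed and 0 of all genes (0%), 24 members and 4284 genes had an unadjusted p under 0.05, and the median was 1.27. No member's CPM separated these groups, against 8.2% of all genes higher and 9.85% lower. DESeq2 passed 11 members as higher (7.15% of all genes higher, 4.42% lower). Without Runx2+/- MS-275 replicate 3, 50 passed (19.4% of all genes), and 80 did without the third libraries (25.8% of all genes). The comparison shares its libraries with those above, so it is no separate evidence of them.

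Many members took a different portion of the ribosomal protein counts in MS-275 than in vehicle libraries, as described by whether the groups overlapped, with no test. Each gene's count was taken as a percentage of the summed member counts of its library, which needs no scaling factor between libraries. In WT, 28 of 82 members had shares that did not overlap and were higher with MS-275, and 29 had lower ones. Relative to the same sum, 1.1% of all genes were higher and 75.9% lower. In Runx2+/-, 15 were higher and 13 lower, against 0.312% and 5.88% of all genes. That sum lay higher on average with MS-275 relative to most genes, which sets these shares of all genes. They are therefore no background for the member counts. By CPM, 27.3% of all genes separated as higher and 27.5% as lower in WT, and 6.33% and 8.56% in Runx2+/-. The same members were on the same side in both genotypes, which share no library, for 12 that were higher and 13 that were lower. Genes on the same side in both genotypes were not counted over all genes, so whether 12 and 13 are many cannot be told. Since the shares add to 100%, a rise in some members forces a fall in others, and leaving out libraries cannot undo a separation.

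The 12 higher ones included Rpl10, Rpl23a, Rpl37, Rpl37a, Rpl38, Rplp1, Rps15a, Rps20, Rps26 and Rps4x. Rps4x made up 4.00%, 3.97% and 3.08% of member counts in Runx2+/- MS-275, against 2.89%, 2.83% and 2.67% in Runx2+/- vehicle. In WT it made up 3.55%, 3.69% and 4.09% with MS-275, against 2.87%, 2.82% and 2.41% with vehicle. All 6 MS-275 libraries, replicate 3 of Runx2+/- included, stood above all 6 vehicle libraries. Rpl38 did the same, at 0.847%, 0.757% and 0.646% in Runx2+/- MS-275 and 0.731%, 0.764% and 0.863% in WT MS-275, against 0.522%, 0.566% and 0.537% in Runx2+/- vehicle and 0.562%, 0.539% and 0.472% in WT vehicle.

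The 13 lower ones included Rpl9, Rpl14, Rpl19, Rpl36, Rpl41, Rplp2, Rps6, Rps9, Rps10, Rps13 and Rps15. Rplp2 made up 0.112%, 0.176% and 0.313% of member counts in Runx2+/- MS-275 and 0.314%, 0.224% and 0.129% in WT MS-275. In vehicle libraries it made up 0.606%, 0.562% and 0.600% in Runx2+/- and 0.604%, 0.716% and 0.740% in WT. The log2 ratio of group means was -1.56 in Runx2+/- and -1.63 in WT, and every vehicle library, the replicate 3 libraries included, lay well above every MS-275 library. Rps9 made up 0.516%, 0.692% and 1.45% in Runx2+/- MS-275 and 0.990%, 0.799% and 0.561% in WT MS-275, against 1.63%, 1.53% and 1.57% in Runx2+/- vehicle and 1.57%, 1.78% and 1.81% in WT vehicle. Runx2+/- MS-275 replicate 3 came nearest to the vehicle libraries for Rps9. With the counts scaled by the summed member counts in the edgeR fit, a setting added after the data were seen, 6 members passed as lower in WT and 0 as higher. Of all genes 69.4% were lower and 0.234% higher, shares that this scaling itself sets.

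**Figure D4:**
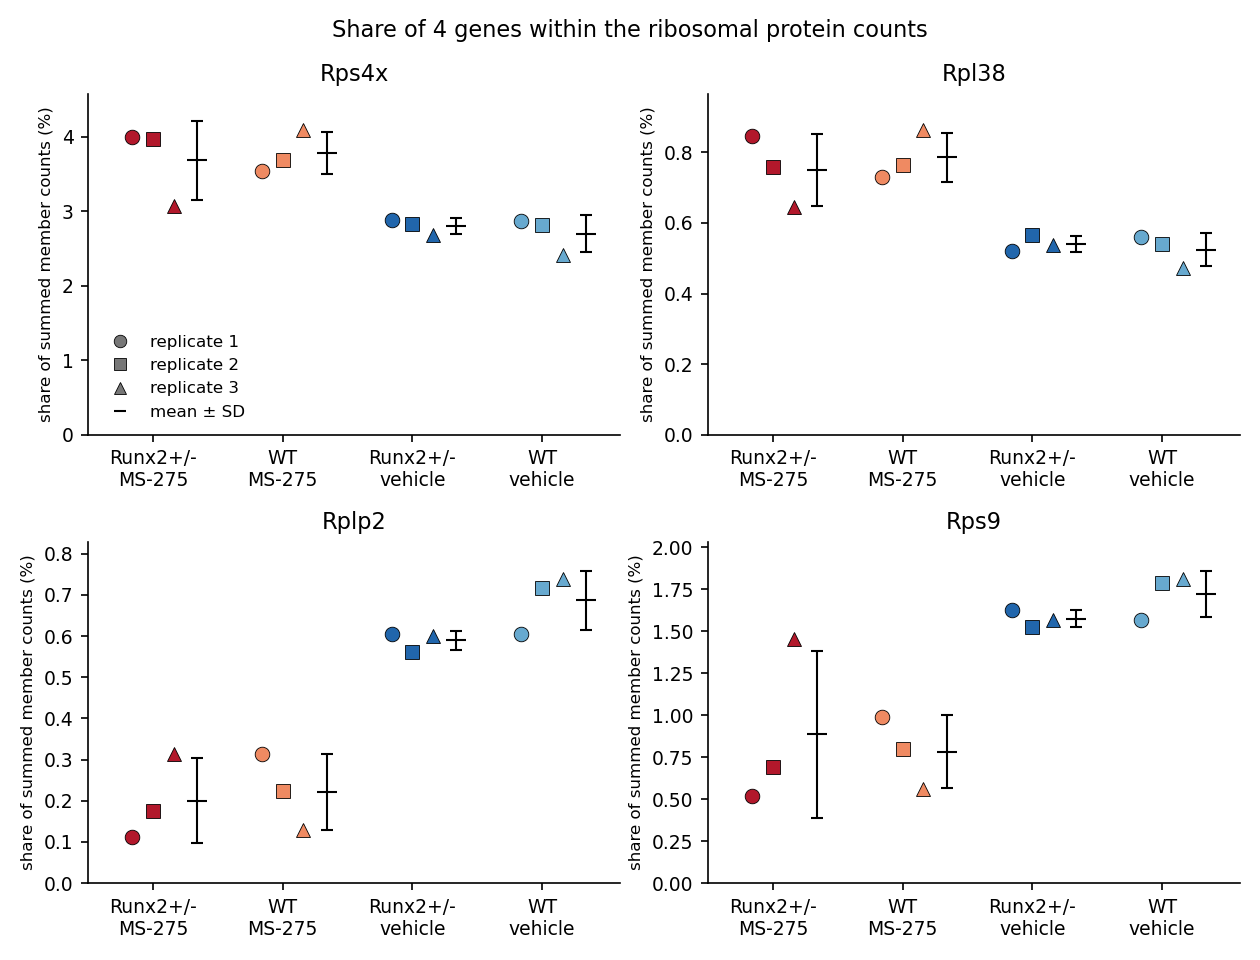
Share of summed ribosomal protein counts (y axis, percent) taken by Rps4x, Rpl38, Rplp2 and Rps9 in each library, with the mean ± SD of 3 libraries per group. The 6 MS-275 libraries lie above the 6 vehicle libraries for Rps4x and Rpl38 and below them for Rplp2 and Rps9, and replicate 3 of the vehicle groups stays with its group.

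Between genotypes, fewer members separated in this measure. Runx2+/- vehicle against WT vehicle gave 2 higher and 1 lower (0.596% and 0.184% of all genes), and Runx2+/- MS-275 against WT MS-275 gave 7 higher and 8 lower (13.0% and 0.557% of all genes). Runx2+/- MS-275 against WT vehicle gave 20 higher and 15 lower (0.351% and 6.33% of all genes). Here too the shares of all genes depend on the summed member counts and are no background for the members.

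The division of counts within paralog pairs was compared as well, and no comparison passed after adjustment. Rps27l, which human cells induce through p53, took 25.6%, 23.9% and 31.8% of the summed counts of Rps27 and Rps27l in Runx2+/- MS-275, and 27.4%, 25.1% and 26.2% in WT MS-275. In vehicle libraries it took 32.3%, 31.4% and 29.9% in Runx2+/- and 32.7%, 38.0% and 35.7% in WT. In WT the 3 MS-275 libraries all lay below the 3 vehicle libraries, at 26.2% ± 1.14 against 35.5% ± 2.64 (SD, n = 3 each; exact permutation p = 0.1, the smallest possible). In Runx2+/- replicate 3 with MS-275 lay within the vehicle range, and the difference was -4.13 points (exact permutation p = 0.3), or -7.12 without the third libraries. Under vehicle the Runx2+/- libraries all lay below the WT libraries, by 4.26 points in the mean (difference -4.26; exact permutation p = 0.1).

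Rpl22l1, the paralog that rises in mice when Rpl22 is lost, moved the other way. It took 39.1%, 35.5% and 24.9% of the summed counts of Rpl22 and Rpl22l1 in Runx2+/- MS-275 and 37.1%, 40.5% and 39.5% in WT MS-275, against 27.6%, 25.8% and 36.2% in Runx2+/- vehicle and 27.1%, 24.0% and 31.3% in WT vehicle. The WT groups did not overlap and differed by 11.6 points (exact permutation p = 0.1). In Runx2+/-, replicate 3 was the lowest with MS-275 and the highest with vehicle, and the difference was 3.29 points (exact permutation p = 0.7), or 10.6 points without the third libraries. As single genes in WT, neither Rpl22l1 (386, 642 and 810.1 CPM in WT MS-275, against 89.1, 65.4 and 234 CPM in WT vehicle; log2 fold change 2.24, adjusted p = 0.0584) nor Rpl22 (653, 942 and 1243 CPM in WT MS-275, against 239, 208 and 514 CPM in WT vehicle; 1.56, adjusted p = 0.0608) passed.

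**Figure D5:**
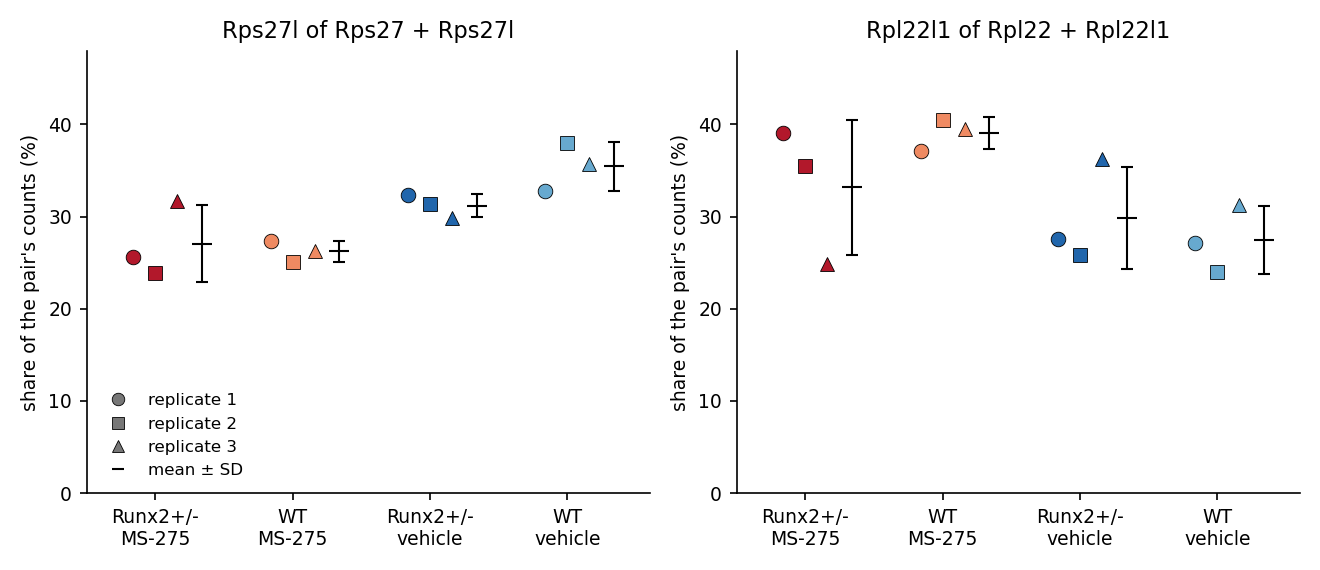
Share of a paralog pair's counts (y axis, percent) taken by Rps27l (left) and Rpl22l1 (right) in each library, with the mean ± SD of 3 libraries per group. In WT, MS-275 libraries lie at 25.1% to 27.4% for Rps27l and 37.1% to 40.5% for Rpl22l1, apart from the vehicle libraries, while replicate 3 of Runx2+/- MS-275 lies among the vehicle values in both panels.

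Rpl39l, a paralog of Rpl39 enriched in mouse testis, was scarce. Runx2+/- libraries held 17.6, 14.3 and 1.61 CPM of it with MS-275, against 1.76, 1.64 and 12.5 CPM with vehicle. WT libraries held 25.2, 36.8 and 44.3 CPM with MS-275, against 2.07, 1.15 and 14.1 CPM with vehicle. All WT MS-275 libraries were above all others, and the vehicle replicate 3 libraries stood above the rest of their groups (WT log2 fold change 2.61, SE 1.14, adjusted p = 0.0964). It took 0.436% to 1.61% of the pair's counts, less in Runx2+/- MS-275 than in WT MS-275 by 0.727 points (difference -0.727; exact permutation p = 0.1). Rpl7l1 took 3.95% ± 0.804 of the counts of Rpl7 and Rpl7l1 in WT MS-275, against 7.85% ± 0.98 in WT vehicle (SD, n = 3 each; exact permutation p = 0.1). In Runx2+/- the difference was -2.63 points (exact permutation p = 0.2). Pairs whose coding sequences are near-identical can exchange reads in counting, so these shares are uncertain. Over the 35 such comparisons of a single value per library, the smallest p adjusted by Benjamini-Hochberg was 0.438, so none passed.

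Of 9 members known for roles beyond the ribosome, Rpl5 and Rpl38 passed as higher in WT. Rpl5 and Rpl11, which with the 5S rRNA restrain Mdm2 and so hold p53 up, had WT log2 fold changes of 2.04 (adjusted p = 0.0487) and 1.89 (adjusted p = 0.0585). Rpl5 had 2275, 3490.2 and 4639 CPM in WT MS-275, against 663, 524 and 1345 CPM in WT vehicle. Rpl11 had 1138, 1616 and 2213 CPM in WT MS-275, against 330.0, 257 and 749 CPM in WT vehicle. In both, WT vehicle replicate 3 was the nearest to the MS-275 libraries. Rps6, the substrate of the S6 kinases, had 1183, 1553 and 2046 CPM in WT MS-275, against 391, 316 and 998 CPM in WT vehicle (log2 fold change 1.49, adjusted p = 0.0957), groups that did not overlap. Rps19 and Rps14, whose loss in humans causes Diamond-Blackfan anaemia and the anaemia of a chromosome deletion syndrome, had WT log2 fold changes of 1.34 and 1.63 (adjusted p = 0.121 and 0.0925). Rps19 had 927, 1096 and 1554 CPM in WT MS-275, against 301, 239.6 and 877 CPM in WT vehicle. Rps14 had 1448, 1892 and 2925 CPM in WT MS-275, against 392, 348 and 1283 CPM in WT vehicle. By CPM the groups did not overlap for either gene, and replicate 3 was the highest vehicle library. Rpl13a, part of an inhibitor of translation in human monocytes, had 2162, 2792 and 3832 CPM in WT MS-275, against 681, 557 and 2067 CPM in WT vehicle (log2 fold change 1.41, adjusted p = 0.115). Rpl24, which is altered in the mouse mutant Belly spot and tail, had 4.69, 5.73 and 8.88 CPM in WT MS-275, against 1.75, 2.02 and 3.76 CPM in WT vehicle (log2 fold change 1.35, adjusted p = 0.0648). None of these was past the threshold in Runx2+/-, where the adjusted p of Rpl5 was 0.226 and of Rpl11 0.254.

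Some features of the genes went with the size of the difference. Across the 82 members, which share libraries and depth, log2 fold change in WT fell with coding GC content (Pearson's r = -0.38) and with coding length (r = -0.41). Over 15852 protein-coding genes the values were -0.22 and -0.10. The 27 members lowest in coding GC (39.9% to 50.4%) had a median WT log2 fold change of 2.08, the 28 in the middle had 1.79 and the 27 highest (54.6% to 61.6%) had 1.63. In Runx2+/- the same sets had 1.35, 1.37 and 1.24. There r with GC content was -0.15 over the members, weaker than the -0.33 over coding genes. In Runx2+/- vehicle against WT vehicle r with GC content was -0.63 over the members and -0.23 over coding genes, although fold changes there were between -0.45 and 0.24.

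TOP starts stood in 30 of the 63 matched promoters, or 47.6%, against 19.5% of 27025 genes in the RefSeq table. Motifs were sought in both strands from 250 bases before to 50 bases after the start, and were counted per gene in the same way. The ETS motif CCGGAAG was in 26 (41.3%, against 9.93% of all genes), the SP1 motif GGGCGG in 39 (61.9% against 38.2%), the YY1 motif AAGATGG in 10 (15.9% against 7.28%) and TATAAA in 7 (11.1% against 15.7%). Of the 9 matched genes that rose in WT, 2 had a TOP start, Rpl38 among them, and Rplp2, with its difference near 0, had one too. Start sites differ between annotations, for some members by far more than the 10-base window. A shift of a few bases can decide whether a tract falls in that window, so the TOP and motif counts depend on the annotation.

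Genes related to the ribosome by function were read from lists drawn up beside the members. Of 4 ribosome genes outside the symbol rule, Rpl36al rose in WT (log2 fold change 2.26, adjusted p = 0.0434), and Rack1 and Fau did not pass (1.47 and 1.35). These counts stand beside the 9.67% of all genes that passed as higher in WT. Of 15 further genes with TOP mRNAs, 2 rose, Npm1 (2.22, adjusted p = 0.0434), a nucleolar chaperone, and the initiation factor subunit Eif3e (2.07, adjusted p = 0.0434), and the list's median was 0.95. Of 5 tested hosts of small nucleolar RNAs, 4 rose, led by Gas5 at 2.12 (adjusted p = 0.0434). Of 30 genes of ribosome assembly and RNA polymerase I, 5 rose, among them Nop58 at 1.58 (adjusted p = 0.0434), with a median of 0.38. Of 16 tested regulators, the S6 kinase Rps6kb1 (0.80, adjusted p = 0.0434) and the ETS factor Gabpa (0.57, adjusted p = 0.0473) rose, with a median of -0.30. Mitochondrial ribosomal proteins, which translate in another compartment, gave 21 of 75 tested as higher, with a median of 0.77. No gene of these lists passed as lower in WT, against 9.33% of all genes. None passed in Runx2+/- in either direction, as 0% of all genes did. Without a threshold the lists went both ways in WT. By CPM without overlap, 15 of the 30 assembly genes were higher and 12 lower, and 6 of the 16 regulators were higher and 7 lower. Mitochondrial ribosomal proteins had 41 higher and 1 lower. Of all genes 27.3% were higher and 27.5% lower.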

How the data were processed

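Each library has 1 deposited table of counts, unnormalized whole numbers of reads by Ensembl gene identifier. Per the submitters' processing notes, Trimmomatic, Bowtie2, SAMtools and HTSeq were used (no versions are named); the notes name the build GRCh38.p7, although the identifiers are mouse. The kit starts from total RNA and marks strand, per the labels' protocols; no source used here gives HTSeq's strand option, so overlapping and antisense genes are uncertain. Summary entries that name no gene stayed out of library sizes (no-feature reads 5.21% to 22.2% of uniquely aligned reads, ambiguous 3.25% to 4.78%).

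Symbols, biotypes and coding lengths came from GENCODE M21 (37607 of 39179 identifiers matched). A filterByExpr step on the 4 groups left 17967 genes (82 members), which were scaled by TMM and fitted with 4 group means and no covariate over 12 libraries (edgeR 4.0.16, quasi-likelihood F test, robust, 8 residual degrees of freedom). All adjusted p-values are two-sided, by Benjamini-Hochberg over all genes tested, threshold 0.05; SE is the absolute log2 fold change divided by the square root of F. Single values per library were compared by exact permutation. Alternatives used DESeq2 1.42.0, limma 3.58.1 and other scalings. R 4.3.3 and Python 3.11.15 were used. Counts give the depth, and a zero could be up to 3 counts.

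Members and lists were chosen with earlier results of these data known. Members named with values, most of them per library, were those with the 4 smallest and 2 largest p-values per subunit class in WT, the 3 smallest in each other comparison, the 4 highest and 4 lowest levels, divergent paralogs and members with textbook extra roles; some items are counted but not reported singly here. Deviations from the group mean correlated between libraries of the same number only in the vehicle groups (0.22, 0.75 and 0.81), as other pairs of groups had at least 1 correlation under 0.1. The labels state no pairing, and replicate 3 of both vehicle groups stood apart, so these values cannot show that the numbers pair libraries.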

Additional observations from a re-analysis of the deposited data

How the results depend on the processing

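Members passing as higher with MS-275 in WT (17) numbered 64 with DESeq2 (18.5% of all genes higher). With only the groups compared in the fit they numbered 63 (20.9% of all genes higher, 23.4% lower). With limma-voom, with no filter on low counts and with a replicate block they numbered 0, and 0 of all genes passed as higher. Scaled by the summed member counts, 0 passed as higher and 6 as lower (69.4% of all genes lower), at a median of 0.0187. Medians were then 0.00044 in Runx2+/- and 0.0342 for Runx2+/- MS-275 against WT vehicle, as that scaling removes the shared change. Leaving out 1 library gave 0 to 74 in WT, 0 to 47 in Runx2+/- and 0 to 50 for Runx2+/- MS-275 against WT vehicle; where a group keeps 2 libraries they are taken to vary like the others. DESeq2 passed 10 in Runx2+/- and 11 for Runx2+/- MS-275 against WT vehicle. Without the third libraries of all groups 81, 80 and 80 passed. Size factors of DESeq2, library size only and TMM without the members gave 16, 16 and 17 in WT. Of all genes 9.12%, 2.93% and 9.77% were then higher, and 9.31%, 39.0% and 9.24% lower. The members' medians were 1.76, 0.952 and 1.80, so similar counts did not mean similar fold changes. Members with an unadjusted p under 0.05 in the edgeR test numbered 65, 34 and 65. Another 497 values of comparisons stayed within the spread or within 1.5 times, but some medians turned sign within that spread: Runx2+/- against WT in vehicle ran from -0.63 to 0.56 with 1 library left out, and the difference between genotypes from -1.11 to 0.07. Without the third libraries Runx2+/- against WT in MS-275 had 0.06 and the difference 0.03. The replicate block also passed 0 members elsewhere, and the labels do not say that the numbers pair libraries. The cause of these changes was not tested. With 3 libraries a group and the smallest adjusted p of any gene in WT at 0.0434, calls near the threshold carry little precision; counts were fewest for Rpl10l, Rpl3l, Rpl39l and Rpl24.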
